A study of Mus musculus with 28 samples.

Results

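Acetylation and trimethylation compete for the same residue of histone H3, lysine 27, and were compared across the promoters of control mesoderm cells. Every protein-coding gene was placed in one of 4 classes by the regions listed within 2.5 kb of its transcription start sites (TSSs). H3K27ac had to be listed in both of the 2 control libraries, and H3K27me3 in at least 2 of the 3 control libraries. Of 22225 genes, 9765 had H3K27ac only, 2303 had H3K27me3 only, 830 had both marks and 9327 had neither. The classes thus held 43.9%, 10.4%, 3.73% and 42.0% of all genes, and with the genes of both marks counted on each side, H3K27ac was present at 47.7% of genes and H3K27me3 at 14.1%.

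The cells were mouse embryonic stem cells with floxed alleles of Brg1, the ATPase of the BAF chromatin remodelling complex, and an Actin-CreER transgene. They grew as embryoid bodies and were induced for 40 h with VEGF, Activin A and BMP4 to give mesoderm at day 4. The controls received only tetrahydrofuran (THF), the solvent, while the other arm received 4-hydroxytamoxifen (4-OHT), which activates CreER and deletes Brg1. The controls therefore kept BRG1, but they also carried the floxed alleles and CreER. The 5 control libraries of the marks were drawn from 28 samples, which also include Suz12 and Brg1-FLAG chromatin immunoprecipitation and sequencing (ChIP-seq).

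H3K27ac is deposited by p300 and CBP at active promoters and enhancers. H3K27me3 is deposited by Polycomb repressive complex 2 (PRC2), of which Suz12 is a core subunit, and is known for covering silent developmental regulators, most widely the Hox clusters. Promoters that carry an active and a repressive mark together are often called bivalent, a term best known for H3K4me3 with H3K27me3 in embryonic stem cells. In a bulk culture, both marks on one chromosome, on the 2 alleles of a gene or in different cells cannot be told apart, and neither can a cell mixture and a change within each cell.

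The H3K27me3 control libraries were not alike. Replicate 1 listed 16959 regions with a median width of 250 bp, against 8798 and 8977 regions with medians of 425 and 350 bp in replicates 2 and 3. Its covered total was 8.38 Mb, against 11.0 and 10.0 Mb. Replicate 1 therefore stood apart with more and narrower regions, and values for it are given apart from the others where they differ. Without it, requiring both other H3K27me3 libraries, the classes held 9912, 2102, 683 and 9528 genes in the order above. The H3K27ac libraries were close to each other, with 37590 and 41062 regions, 28.0 and 30.8 Mb covered and a median width of 400 bp in both. Genes called were shared by 95.9% and 96.8% of the calls of either H3K27ac library, and by 74.8% to 94.6% for pairs of H3K27me3 libraries. Of the 831 genes with H3K27me3 in 1 library alone, 675 were listed in replicate 1. The lists hold no read numbers, so the depth behind each region is unknown.

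Regions of H3K27me3 lay within 2.5 kb of a TSS more often than those of H3K27ac in every library. The share within 2.5 kb of a TSS was 44.0% and 40.9% for H3K27ac, and 53.1%, 66.5% and 65.0% for H3K27me3. The mean was 42.4% ± 2.21 (SD, n = 2) against 61.5% ± 7.39 (SD, n = 3), and the exact permutation test (two-sided) gave p = 0.2, the smallest p this design allows. The difference of -19.1 percentage points was -23.3 without H3K27me3 replicate 1 and -5.14 when 1 kb was the distance, where p = 0.6 in the same exact test. Median widths were 400 bp ± 0 (SD, n = 2) and 342 bp ± 87.8 (SD, n = 3), with p = 0.6 by exact permutation. Their difference of 58.3 bp was 12.5 bp without H3K27me3 replicate 1 and 100 bp without replicate 2. The upper end of the widths was more spread among the H3K27me3 libraries, where the widest region measured 9300 bp in replicate 1, 94725 bp in replicate 2 and 66425 bp in replicate 3. The widest H3K27ac regions were 18175 and 19800 bp.

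The promoters of 4 genes, 1 from each class, are printed as single examples, which need not be typical of their class in sequence. Each stretch below is the 250 bases before the outermost annotated 5′ end on the gene strand of NCBIM37 (mm9), with CpG dinucleotides, the target of DNA methylation and a hallmark of Polycomb-bound promoters, in capitals. None overlapped an annotated exon.
Tbx6: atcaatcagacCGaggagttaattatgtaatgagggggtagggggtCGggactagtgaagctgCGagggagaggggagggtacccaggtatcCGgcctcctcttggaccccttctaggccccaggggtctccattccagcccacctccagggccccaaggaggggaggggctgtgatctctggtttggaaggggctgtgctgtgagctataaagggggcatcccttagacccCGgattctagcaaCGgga
En1: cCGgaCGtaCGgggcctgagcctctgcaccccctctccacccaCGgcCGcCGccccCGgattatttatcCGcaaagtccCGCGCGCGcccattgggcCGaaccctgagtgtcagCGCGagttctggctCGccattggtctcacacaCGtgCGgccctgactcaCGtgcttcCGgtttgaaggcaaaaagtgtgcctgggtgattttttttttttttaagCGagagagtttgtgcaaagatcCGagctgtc
Hand1: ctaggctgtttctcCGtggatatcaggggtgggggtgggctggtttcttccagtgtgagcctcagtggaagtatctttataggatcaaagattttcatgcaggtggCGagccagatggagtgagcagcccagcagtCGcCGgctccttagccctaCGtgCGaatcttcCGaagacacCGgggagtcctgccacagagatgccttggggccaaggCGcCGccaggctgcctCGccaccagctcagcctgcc
Olfr1: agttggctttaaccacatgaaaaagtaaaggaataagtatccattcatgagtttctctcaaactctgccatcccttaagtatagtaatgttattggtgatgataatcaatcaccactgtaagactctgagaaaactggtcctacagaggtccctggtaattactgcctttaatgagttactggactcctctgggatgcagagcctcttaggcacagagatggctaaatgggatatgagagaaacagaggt

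Tbx6, a T-box factor of nascent paraxial mesoderm, represents H3K27ac only, and its stretch lies at chr7:133924747-133924996 on the plus strand. H3K27ac covered all 250 bases in both libraries and H3K27me3 covered none in any of the 3. En1, a homeobox gene of the midbrain and hindbrain at chr1:122498745-122498994 on the plus strand, represents H3K27me3 only. H3K27me3 covered all 250 bases in replicates 2 and 3 and 0 in replicate 1, and H3K27ac covered 0 in both libraries. Hand1, a basic helix-loop-helix factor of early heart and extraembryonic mesoderm at chr11:57646321-57646570 on the minus strand, represents both marks. Its 250 bases were covered throughout by H3K27ac in both libraries, while H3K27me3 covered 0, 95 and 95 of them. Olfr1, an odorant receptor at chr11:73212998-73213247 on the minus strand, was covered by neither mark.

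The stretches held 6, 22, 11 and 0 CpGs in that order, and 59.5%, 17%, 44.1% and 100% of all promoters of this length held as many or more. The medians of their classes were 15, 14, 18 and 2 CpGs, so Tbx6, Hand1 and Olfr1 lay below theirs and En1 above. A TATAAA starts 43 bases before the Tbx6 5′ end, which is outside the interval from 40 to 16 bases searched over all genes, and the other 3 stretches hold none. TATAAA in that interval on the gene strand was found at 0.748% of H3K27ac-only, 2.04% of H3K27me3-only, 1.33% of both-mark and 4.27% of neither-mark promoters, against 2.38% of all. GGGCGG on either strand, the core of a GC box, was present in the En1 stretch and absent from the other 3, and was found in 57.5%, 55.2%, 64.8% and 14.8% of the 4 classes, against 39.6% of all promoters.

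Genes of the primitive streak and nascent mesoderm were divided between H3K27ac alone and both marks. Of 20 genes, 9 had H3K27ac only, 8 had both marks, 3 had H3K27me3 only and 0 had neither, against 43.9%, 3.73%, 10.4% and 42.0% of all genes. H3K27ac was thus listed at 17 of the 20 genes. In the values that follow, the bases covered out of a 5001 bp window centred on the 5′ end are given for each library.

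Signalling genes and transcription factors were both found among the 9 genes with H3K27ac alone. Nodal, the TGF-beta ligand that induces the streak, had 4426 and 4645 bp of H3K27ac in replicates 1 and 2. Lefty2, its secreted antagonist, had 762 and 937 bp. Wnt3, a ligand required to form the streak, had 2937 and 4626 bp. These 3 genes had no H3K27me3 in any library, and H3K27ac was broader at both ligands than at the antagonist. Among the transcription factors, Tbx6 had 2750 and 3629 bp, Mixl1 2250 and 2825 bp, Msgn1 1125 and 1700 bp and Snai1, which represses E-cadherin during migration, 2495 and 3870 bp, again with 0 bp of H3K27me3. Mesp1, a factor of the earliest cardiovascular progenitors, had 1376 and 2801 bp of H3K27ac, and 375 bp of H3K27me3 in replicate 2 alone. Its neighbour Mesp2 had the least, with 125 and 250 bp of H3K27ac and 100 bp of H3K27me3 in replicate 1 alone. In each of these 9 genes replicate 2 of H3K27ac covered more bases than replicate 1.

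Both marks were found at factors of the organizer and the early streak. Goosecoid (Gsc), a homeobox gene of the organizer, had 2464 and 2889 bp of H3K27ac, and 1062, 4551 and 4751 bp of H3K27me3. Lhx1, a homeobox gene of the node and lateral mesoderm, had 2025 and 2500 bp of H3K27ac and 623, 2951 and 2951 bp of H3K27me3. Eomes, a T-box factor of mesoderm and endoderm, had 4080 and 4680 bp of H3K27ac against 100, 1546 and 1746 bp of H3K27me3. H3K27me3 covered less at Eomes than H3K27ac in every library, whereas at Gsc it covered more in replicates 2 and 3. The receptors Pdgfra and Cxcr4 also had both: Pdgfra had 2151 and 4076 bp of H3K27ac with 50, 1825 and 2625 bp of H3K27me3, and Cxcr4 had 875 and 1500 bp with 406, 1431 and 1056 bp. At all 5 of these genes, replicate 1 listed the least H3K27me3.

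The other both-mark members of this group rested on little H3K27me3. T (Brachyury), the founding T-box gene, had 1400 and 1750 bp of H3K27ac and 150, 125 and 475 bp of H3K27me3. Evx1 had 3834 and 4484 bp of H3K27ac and 225, 75 and 200 bp of H3K27me3. Fgf8, the growth factor that drives cells out of the streak, had 2580 and 2451 bp with 0, 25 and 250 bp. When 500 bp of a window had to be covered, T, Evx1 and Fgf8 were classed as H3K27ac only.

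H3K27me3 without H3K27ac was found at 3 genes of the group. Cyp26a1, which degrades retinoic acid, had 1223, 4328 and 4178 bp of H3K27me3. Wnt3a, a ligand of the caudal streak, had 1351, 4572 and 4497 bp. Kdr, the VEGF receptor of endothelial progenitors, had 1758, 2700 and 3075 bp. None of the 3 had any H3K27ac within its window.

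**Figure D1:**
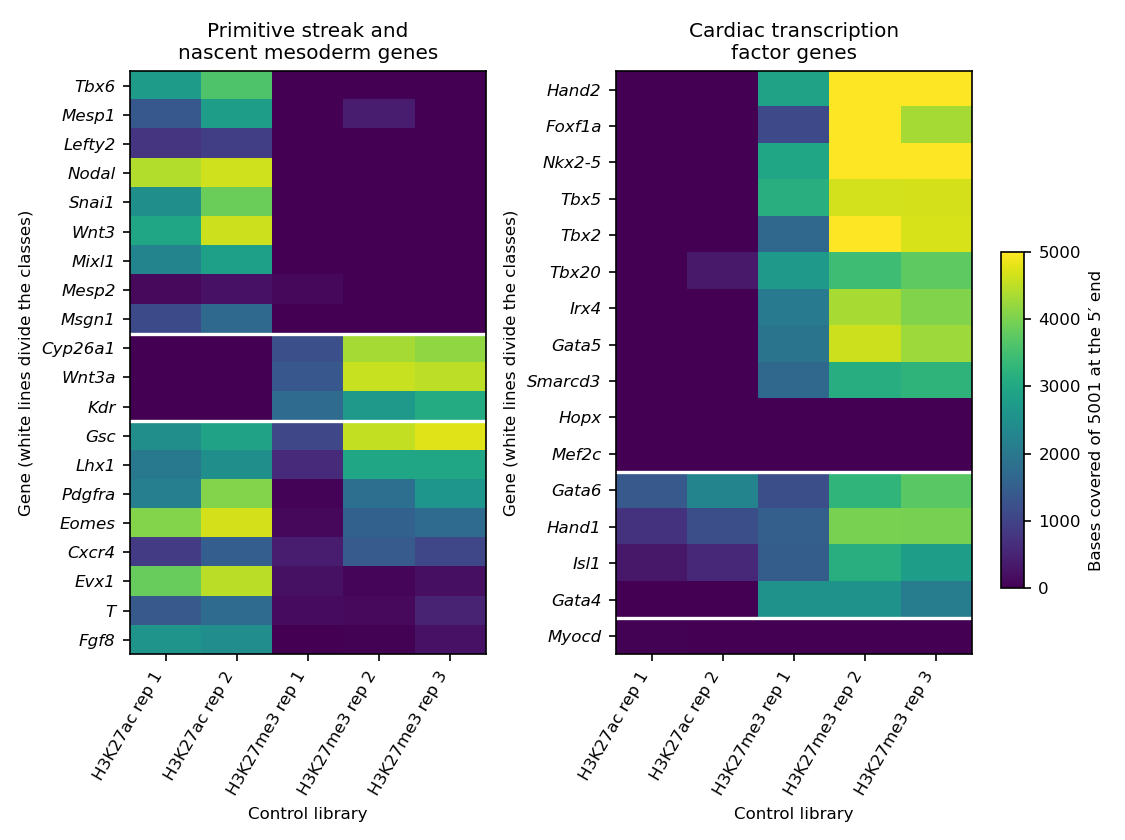
Bases covered by H3K27ac or H3K27me3 regions, of the 5001 bp centred on the 5′ end, for genes of the primitive streak and nascent mesoderm (left, 20 genes) and cardiac transcription factors (right, 16 genes) in the 5 control libraries. Rows are genes, columns are libraries, the colour scale runs from 0 to 5000 bp and white lines divide the classes; H3K27ac fills the upper left, H3K27me3 fills the right panel from Hand2 down to Smarcd3, and Hopx, Mef2c and Gata4 owe their class to another TSS.

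The list of cardiac transcription factors, which also holds the BAF subunit gene Smarcd3, was mostly marked by H3K27me3. Its members Hopx and Mef2c, with H3K27me3 only, owed their class to a TSS other than the 5′ end. Of 16 genes, 0 had H3K27ac only, 11 had H3K27me3 only, 4 had both marks and 1 had neither. Hand2, of the right ventricle and limb, had 2876, 5001 and 5001 bp of H3K27me3, so that replicates 2 and 3 covered the whole window. Nkx2-5, a homeobox gene at the top of the cardiac program, had 2960, 5001 and 5001 bp, and Tbx5, a T-box gene of the first heart field and forelimb, had 3154, 4651 and 4676 bp. These 3 had no H3K27ac in either library. Tbx20 had 2680, 3451 and 3751 bp of H3K27me3 with 350 bp of H3K27ac in replicate 2 alone. Smarcd3, which encodes the heart-enriched BAF60c subunit, had 1671, 3121 and 3246 bp of H3K27me3. The both-mark members were Gata6, Hand1, Isl1 and Gata4. Gata6, a zinc-finger factor of mesendoderm, had 1400 and 2250 bp of H3K27ac with 1200, 3276 and 3726 bp of H3K27me3. Hand1 had 725 and 1200 bp with 1520, 4001 and 3976 bp, and Isl1, of the second heart field, had 325 and 575 bp with 1475, 3155 and 2805 bp. In these 3 genes H3K27me3 covered more than H3K27ac in replicates 2 and 3. Gata4 had 0 bp of H3K27ac and 2575, 2572 and 2097 bp of H3K27me3 at its 5′ end, and its H3K27ac lay at another annotated TSS. Myocd, a coactivator of muscle genes, had neither mark beyond 25 bp of H3K27ac in replicate 1.

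The contractile genes that act later in heart cells were mostly without either mark. Of 18 sarcomere and contraction genes, 12 had neither, among them Myh6, Mybpc3, Actc1 and Actn2, while 5 had H3K27ac only and Ryr2, the calcium release channel, had H3K27me3 only. Tnnt2 had 1050 and 1450 bp of H3K27ac, and Myl4 had 1525 and 1550 bp. In the group of blood and endothelial genes, 8 of 20 had H3K27me3 only, including Tal1 with 3326, 5001 and 5001 bp and Gata2 with 2541, 5001 and 5001 bp. Etv2, the earliest haemato-endothelial factor of that group, had H3K27ac only, with 2408 and 3683 bp. Fli1 and Runx1 had both marks, and 9 had neither, including Gata1, Cdh5 and the embryonic globins Hba-x and Hbb-bh1.

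Gene lists of other lineages differed in their leading class. H3K27me3 alone was found at 22 of 23 neural regulators, with Olig1 in the neither class and 0 genes in the H3K27ac classes. Pax6 had 1751, 5001 and 5001 bp, En1 had 1900, 5001 and 4776 bp, and Neurog2 had 2626, 4776 and 4726 bp. It was found at 13 of 18 paraxial mesoderm and skeletal muscle genes, among them Pax3 with 3142, 5001 and 5001 bp, and at 10 of 14 genes of intermediate mesoderm and kidney, such as Osr1, Pax2 and Emx2. Myf5, a determinant of skeletal muscle, stood apart from its group with 140 and 190 bp of H3K27ac only. Of 10 neural crest genes 5 had H3K27me3 only, whereas 8 of 12 epidermis genes and 5 of 8 trophoblast genes had neither mark, with H3K27me3 alone at 1 and 0. In endoderm, 8 of 18 genes had H3K27me3 only, 2 had H3K27ac only, 2 had both and 6 had neither. Sox17 had 3294, 5001 and 5001 bp of H3K27me3 and Foxa2 had 1755, 4401 and 4201 bp, whereas Cer1, a secreted Nodal and BMP antagonist, had 1300 and 1850 bp of H3K27ac. Sox17, Foxa2 and Pax6 were among the markers chosen for the label of the cells. Of the mesoderm markers, Mixl1 and Mesp1 had H3K27ac only, T, Eomes and Pdgfra had both marks, and Kdr had H3K27me3 only. The pluripotency markers Nanog and Pou5f1 and the cardiomyocyte marker Tnnt2 also had H3K27ac only. Esrrb, a pluripotency marker, had H3K27me3 only, and Zfp42, Myh6 and Actc1 had neither. The marks at these genes therefore do not settle the label. The marks do not measure expression, and no RNA was used here.

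**Figure D2:**
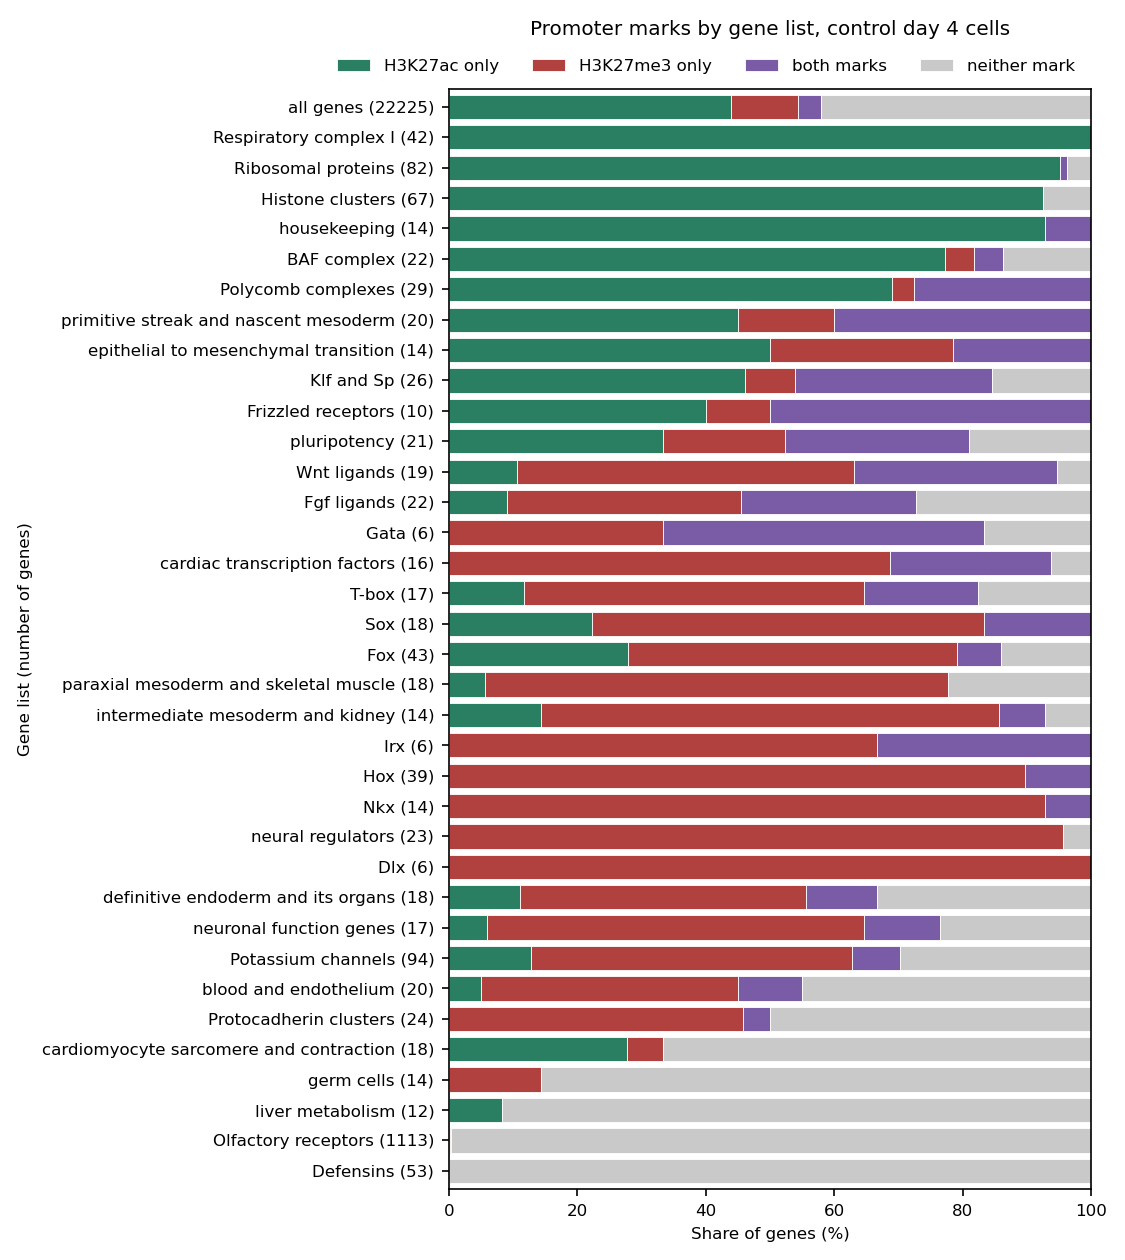
Share of the genes of selected lists and families (horizontal axis, %, with the number of genes beside each name) in the 4 classes, stacked from 0 to 100%; the top bar is all 22225 genes. H3K27ac fills the bars of housekeeping families, H3K27me3 those of Hox and neural regulators, and the neither class those of olfactory receptors and defensins.

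Pluripotency genes were found in all 4 classes, at 7, 4, 6 and 4 of 21 genes in the order H3K27ac only, H3K27me3 only, both and neither. Pou5f1 had 4244 and 4269 bp of H3K27ac and Nanog 1925 and 1975 bp, with no H3K27me3. Tdgf1, a coreceptor of Nodal, had 4637 and 4687 bp. Both marks were found at Sox2, with 1400 and 425 bp of H3K27ac and 450, 2426 and 1002 bp of H3K27me3, at Klf4, with 1000 and 525 bp against 625, 2925 and 2325 bp, and at Utf1, with 2125 and 1275 bp against 1413, 2763 and 1400 bp. Replicate 1 had more H3K27ac than replicate 2 at these 3 genes. Replicate 2 had more at Pou5f1, Nanog and Tdgf1, by little, and at the 9 streak genes with H3K27ac only. Prdm14 and Fgf4, both known from embryonic stem cells, had H3K27me3 only, with 1882, 3826 and 4301 bp and 750, 3391 and 2425 bp. Zfp42 (Rex1) was classed as neither, having 375 bp of H3K27ac in replicate 1 alone.

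Genes of the epithelial to mesenchymal transition were divided by function only in part. E-cadherin (Cdh1), the epithelial adhesion molecule, had 3151 and 2901 bp of H3K27ac, and fibronectin (Fn1), a mesenchymal matrix protein, had 2675 and 4176 bp, so both sides of the transition carried H3K27ac. Twist1, a mesenchymal factor, had 925, 4251 and 4651 bp of H3K27me3 and 925 bp of H3K27ac in replicate 2 alone, and was classed as H3K27me3 only. Across the list of 14 genes, 7 had H3K27ac only, 4 H3K27me3 only and 3 both. Has2, which makes hyaluronan, had 4532 and 4707 bp of H3K27ac, and Sulf1, an extracellular sulfatase, had 1450 and 1500 bp, and neither had H3K27me3.

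Among the chromatin regulators themselves, 17 of 22 BAF genes had H3K27ac only, including Brg1 (Smarca4) with 2875 and 2450 bp. Of the others, Smarcd3 had H3K27me3 only, Smarca2, which encodes the alternative ATPase BRM, had both marks, and Dpf1, Dpf3 and Actl6b, a neuronal subunit, had neither. Of 29 Polycomb genes, 20 had H3K27ac only, among them the PRC2 core, with 1725 and 1775 bp at Ezh2, 2025 and 2175 bp at Suz12 and 2350 and 2150 bp at Eed. Both marks were found at 8 Polycomb genes, among them genes for the PRC1 subunits Bmi1, Cbx2, Cbx8, Pcgf1 and Pcgf3 and for the PRC2 cofactor Phf19. Bmi1 had 375 and 775 bp of H3K27ac with 1220, 3576 and 3676 bp of H3K27me3, and Cbx2 had 1375 and 1500 bp with 850, 1375 and 1525 bp. The share with both marks was 27.6% of this list against 3.73% of all genes, and it depended on the setting, with 3 to 9 Polycomb genes in the class over the 16 alternative settings.

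Homeobox and other developmental families were mostly marked by H3K27me3. Of 39 Hox genes, 35 had H3K27me3 only and 4 had both, with 0 in the other classes. The regions covered 97.5% and 97.3% of the Hoxa cluster in replicates 2 and 3 and 65.4% in replicate 1. They covered 98.6%, 96.5% and 73.0% of Hoxc, 91.8%, 91.2% and 62.5% of Hoxd, and 70.7%, 69.7% and 48.3% of Hoxb in the same order, whereas H3K27ac covered at most 1.15% of any cluster. Replicate 1 was the lowest in each cluster, and Hoxb was the least covered in each replicate. The widest region of all, 94725 bp in replicate 2, spanned the 5′ ends of 10 genes at Hoxa. The Hox genes with both marks included Hoxb1 and Hoxc13. Hoxc13 had 400 and 75 bp of H3K27ac with 2859, 4576 and 4376 bp of H3K27me3. Hoxb1 had 566 bp of H3K27ac in replicate 2 alone at its 5′ end, and the window where both libraries listed H3K27ac was that of another TSS.

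The other families fell between these extremes. All 6 Dlx genes and 13 of 14 Nkx genes had H3K27me3 only, as had 9 of 10 Lhx and Lmx genes and 8 of 9 Pax genes. The large Fox family was mixed, with 12 H3K27ac only, 22 H3K27me3 only, 3 both and 6 neither among 43, and the Sox family had 4, 11, 3 and 0 of 18. In the Gata family 3 of 6 had both marks. Zic2 and Zic5 had H3K27ac only, and Zic1 and Zic4 had H3K27me3 only. Of 367 zinc-finger (Zfp) genes, 237 were in the H3K27ac-only class, 13 in H3K27me3 only, 15 in both and 102 in neither.

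Within the signalling pathways, the class that led differed between gene lists, without a common division of ligands from the proteins downstream of them. Of 19 Wnt ligands, 10 had H3K27me3 only, 6 both, 2 H3K27ac only and 1 neither, whereas of 10 Frizzled receptors 4 had H3K27ac only, 5 both and 1 H3K27me3 only. Fzd7 had 4441 and 4566 bp of H3K27ac. Fzd1, with both, had 750 and 850 bp of H3K27ac and 666, 250 and 710 bp of H3K27me3. The number of Frizzled genes with both marks ranged from 0 to 5 over the settings. Of 22 genes with Bmp or Gdf names, 9 had H3K27me3 only, including Bmp4 with 450, 1850 and 2500 bp. By contrast, 7 of 8 Smad genes had H3K27ac only and Smad9 had H3K27me3 only. Of 9 Notch receptors and ligands, 5 had H3K27ac only, 3 both and 1, the endothelial ligand Dll4, H3K27me3 only. Of 9 Hes and Hey genes, a family that includes targets of that pathway, 6 had H3K27me3 only.

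Families of the basic cell machinery had H3K27ac. It was the only mark at 78 of 82 ribosomal protein genes, 74 of 77 mitochondrial ribosomal protein genes, 43 of 50 proteasome genes and 62 of 67 clustered histone genes. It was also the only mark at all 42 genes with Nduf symbols, mostly subunits and assembly factors of respiratory complex I. The exceptions included genes of restricted use, such as Rpl10l and Rpl3l, in the neither class. The ribosomal protein list did not hold every annotated symbol that begins with Rpl or Rps. Over all such symbols, H3K27ac was the only mark at 47 of 87 Rpl and 40 of 57 Rps genes, and 40 and 14 had neither mark. Hist1h3b, of the cluster on chromosome 13, ranked first in the class by H3K27ac within 10 kb and had 3950 and 3875 bp. Gapdh, a glycolytic enzyme, had 4941 and 5001 bp.

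The neither class was led by tissue-restricted receptor and defence families. It held 1110 of 1113 olfactory receptors, 326 of 327 vomeronasal receptors, 37 of 38 taste receptors, all 53 defensins, all 15 interferon genes and 90 of 100 keratins and keratin-associated proteins. The exceptions among olfactory receptors were Olfr222 and Olfr543 with H3K27ac and Olfr95 with H3K27me3. Simple-epithelium keratins Krt8 and Krt18 were in the H3K27ac-only class. Liver genes had neither mark at 11 of 12, immune genes at 13 of 16 and germ cell genes at 12 of 14. Neural receptor and channel families were mostly in other classes: of 46 glutamate and GABA receptors 26 had H3K27me3 only and 14 neither, and of 94 potassium channels 47 had H3K27me3 only and 28 neither.

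The marks seldom lay on the same bases, even where a gene had both. Of the 830 both-mark genes, 673 had them in the window of the same TSS and 157 at different TSSs only. Bases covered by H3K27ac in both libraries and bases covered by H3K27me3 in at least 2 of 3 were both present in 1 window of 585 of the 673, and the other 88 could not be scored. In 516 of the 585 (88.2%), no base carried both. Without H3K27me3 replicate 1, counting bases covered in both other replicates, 63 genes had a shared base, against 69 with it, and 110 had one when any 1 H3K27me3 library was enough. In the 513 genes whose marks neither overlapped nor touched, the gap between them had a median of 825 bp, with quartiles of 500 and 1225 bp. Among the 15 genes that shared at least 500 bp, Esrp2, an epithelial splicing regulator named after its value was seen, had the most with 2575 bp. Gsc shared 1964 bp, Eomes 625 bp, Tbx3 575 bp and Msx1 500 bp. Mt1, a metallothionein, shared 1750 bp, with 2475 and 2075 bp of H3K27ac and 2287, 3075 and 1650 bp of H3K27me3 in its window.

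H3K27ac tended to lie nearer the TSS than H3K27me3. Among the 211 both-mark genes with 1 TSS, H3K27ac covered the TSS base itself in 30.8% and H3K27me3 in 8.53%. In both-mark genes, the 500 bp bin centred 250 bp after the 5′ end had H3K27ac in 56.7% and 53.6% of genes and H3K27me3 in 8.19%, 30.2% and 26.1%. In the bin centred at 1250 bp, H3K27ac was at 19.8% and 17.6% and H3K27me3 at 36.9%, 46.0% and 40.8%. The order of the marks was thus reversed over 1 kb in each of the libraries. In H3K27me3-only genes the bin at 250 bp was filled in 64.4% and 56.4% of genes in replicates 2 and 3 but in 16% in replicate 1, where 53.5% was reached at 750 bp before the 5′ end and 57.1% at 1250 bp after it. A dip at the TSS was therefore deep in replicate 1 and shallow in the other two. In H3K27ac-only genes the bin at 250 bp was filled in 88.7% and 88.1%.

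**Figure D3:**
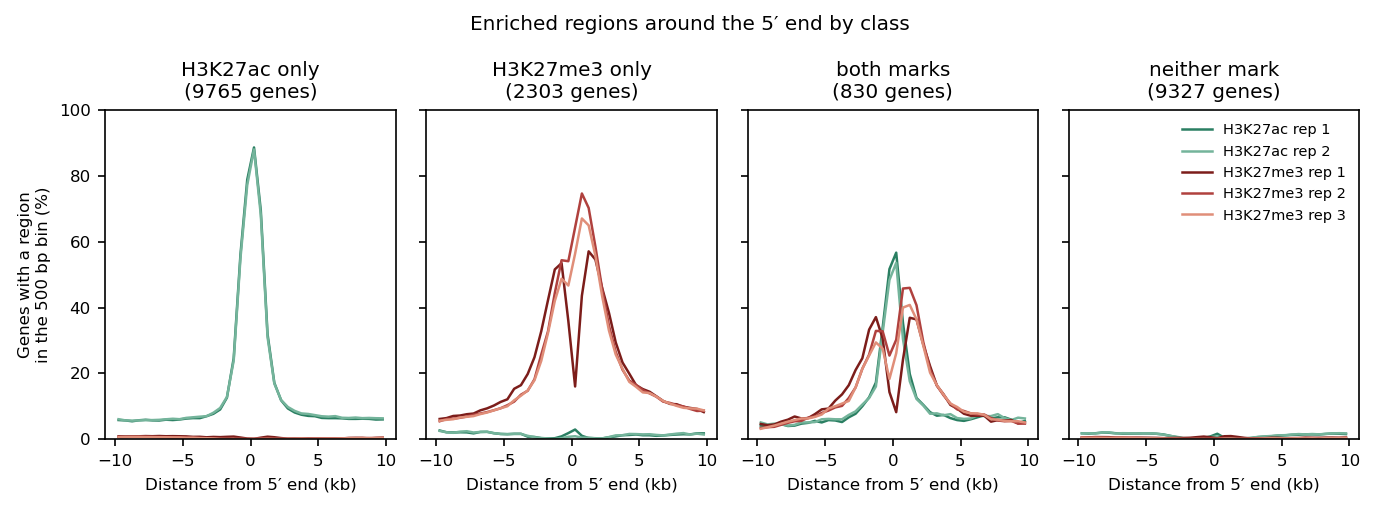
Share of genes (vertical axis, %) with a listed region in each 500 bp bin, by distance from the 5′ end (horizontal axis, kb, positive in the direction of transcription), 1 panel per class and 1 line per control library. H3K27ac peaks at the 5′ end, H3K27me3 peaks beside it, and H3K27me3 replicate 1 falls to 16% and 8.19% at 250 bp in the H3K27me3-only and both-mark panels.

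The classes differed in how much of the window at the 5′ end was covered, although any TSS of a gene could give its class. The median H3K27ac-only gene had 1275 and 1250 bp of H3K27ac, and the median H3K27me3-only gene had 1050, 1725 and 1400 bp of H3K27me3. In both-mark genes the medians were 550 and 475 bp of H3K27ac and 530, 800 and 575 bp of H3K27me3, below those of the single-mark classes in every library. These medians include genes marked only at another TSS. At the 5′ end, 81.8% and 81.0% of both-mark genes had any H3K27ac, against 96.7% and 96.5% of H3K27ac-only genes. For H3K27me3 the shares were 83.0%, 85.3% and 78.3%, against 91.8%, 92.4% and 88.4% of H3K27me3-only genes. Both-mark genes had a median of 3 TSSs, as had H3K27ac-only genes, and a mean of 4.44, against means of 4.21, 3.05 and 1.95 in the H3K27ac-only, H3K27me3-only and neither classes. Their median gene length was 41.0 kb, against 22.0, 27.2 and 7.38 kb.

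H3K27me3 was less frequent at genes with H3K27ac than at genes without it. It was listed at 830 of 10595 genes with H3K27ac (7.83%) and at 2303 of 11630 without (19.8%), and among genes with 1 TSS at 7.32% and 13.2%. Over the 6 pairs of 1 H3K27ac and 1 H3K27me3 library, the share of H3K27ac genes with H3K27me3 was 7.87% to 11.5%, with the higher values from H3K27me3 replicate 1. Within each pair it was below the share of all genes, which was 16.5%, 14.1% and 13.3% for replicates 1, 2 and 3. These shares come from the calls that define the classes and carry no test.

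Suz12 and BRG1 were not used to define the classes. A Suz12 region was listed within 2.5 kb of a TSS at 6.83% and 6.89% of all genes in its 2 control libraries. The shares were 53.9% and 54.8% in H3K27me3-only genes and 32.4% and 31.4% in both-mark genes, against 0.0307% and 0.0205% in H3K27ac-only genes and 0.0536% and 0.0858% in genes with neither. With 2 libraries of 1 factor the difference between classes has no test over samples, and the libraries differed by less than 2 percentage points in every class. Both Suz12 libraries listed 1354 genes (6.09% of all), of which 1132 were H3K27me3 only and 219 both. The other 3, Coro2b, Ptp4a3 and Pygm, were in the neither class and are named because they were the only ones, after their values were seen.

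Suz12 went with broad H3K27me3. The 1132 H3K27me3-only genes with Suz12 in both libraries had medians of 1531, 3113 and 2816 bp of H3K27me3, and the 932 with Suz12 in neither had 625, 575 and 325 bp. In both-mark genes the medians were 782, 2077 and 1800 bp for 219 genes with Suz12 and 469, 450 and 300 bp for 519 without. The difference had the same direction in all 3 libraries and was smallest in replicate 1. By list, Suz12 was in both libraries at all 39 Hox genes, 21 of 23 neural regulators and 13 of 16 cardiac transcription factors, but at 5 of 20 streak genes, 30 of 94 potassium channels and 13 of 46 glutamate and GABA receptors. Nkx2-5 had 3176 and 4001 bp of Suz12, Cyp26a1 had 1125 and 1850 bp, and Kdr had 0 and 650 bp.

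BRG1, detected through a FLAG tag, was listed most often at both-mark genes in replicates 1 and 2. The labels give these samples the floxed Brg1 and CreER genotype, while the study's methods describe a separate line with a FLAG tag on the endogenous Brg1 gene and duplicates in place of the 3 lists. The shares were 29.4% and 27.5% in both-mark genes, 16% and 13.6% in H3K27ac only, 7.60% and 6.73% in H3K27me3 only and 1.14% and 0.943% in neither, against 9.37% and 8.11% of all genes in replicates 1 and 2. Replicate 3 listed 192 regions in all, against 8021 and 8257, and reached 40 genes, 0.180% of all, with 4 both-mark genes (0.482%) and 35 H3K27ac-only genes (0.358%). The mean number of TSSs was also highest in both-mark genes, and its part in the BRG1 shares was not tested.

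**Figure D4:**
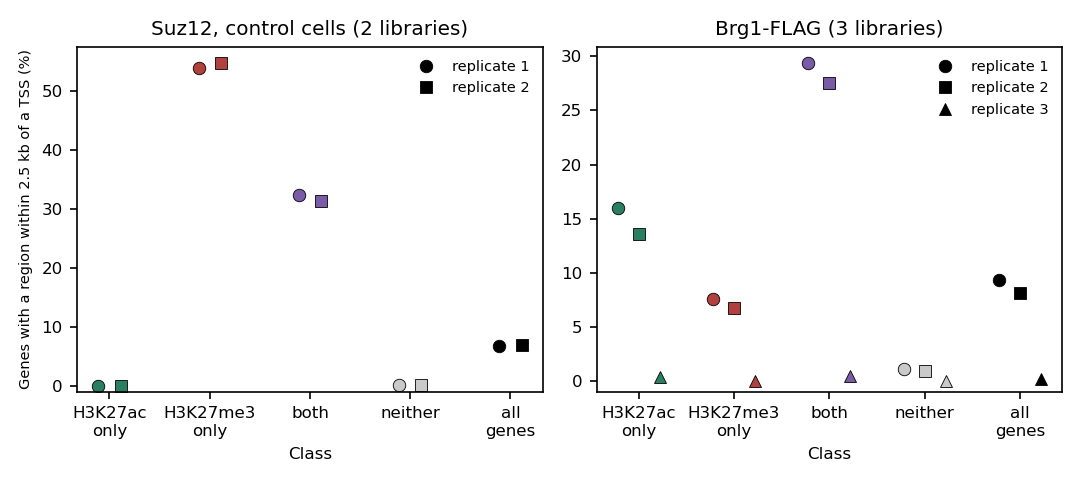
Share of the genes of each class (vertical axes, %) with a Suz12 region (left, 2 control libraries) or a Brg1-FLAG region (right, 3 libraries) within 2.5 kb of a TSS, with 1 point per library, its shape giving the replicate, and all genes at the right of each panel. Suz12 is near 54% in the H3K27me3-only class and near 0 in H3K27ac only, and Brg1-FLAG is highest in the both-mark class in replicates 1 and 2, while replicate 3 lies near 0 throughout.

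After Brg1 deletion most genes still had a listed region of the mark of their class, which shows presence and not level. On levels, the paper reported less H3K27me3 at upregulated genes that carried this mark in controls. It found promoter H3K27ac largely unchanged, but lower near the TSS of downregulated genes. H3K27ac was listed in the 4-OHT libraries at 97.7% and 97.6% of H3K27ac-only genes and at 91.4% and 91.8% of both-mark genes, against 50.3% and 49% of all genes. H3K27me3 was listed at 82.6%, 89.9% and 81.0% of H3K27me3-only genes and at 69.0%, 78.9% and 64.5% of both-mark genes, against 12.1%, 13.0% and 11.2% of all genes. The other mark was listed at fewer genes, with H3K27me3 at 0.543% to 1.16% of H3K27ac-only genes. H3K27ac was at 12.4% and 8.55% of H3K27me3-only genes and at 6.38% and 4.18% of genes with neither. Of the 2303 H3K27me3-only genes, 2154 had no H3K27ac in control replicate 1 and 2199 had none in control replicate 2. The 4-OHT libraries listed H3K27ac at 285 and 197 of these genes, more than either control library. A class that needed agreement among control libraries favours the controls in such a count, and no test was made.

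CpG content separated marked from unmarked genes more than it separated the marks. Over the 1001 bases around the 5′ end, the observed over expected CpG ratio had a median of 0.745 (quartiles 0.605 and 0.852) in H3K27ac-only, 0.663 (0.512 and 0.780) in H3K27me3-only, 0.740 (0.613 and 0.851) in both-mark and 0.211 (0.128 and 0.360) in neither-mark genes. Counting as CpG-rich a ratio of at least 0.6 with a GC content of at least 50%, 73.4%, 60.9%, 75.9% and 6.69% of the classes were CpG-rich, against 44.2% of all genes. Of the 9828 CpG-rich genes, 73.0% had H3K27ac only, 14.3% H3K27me3 only, 6.41% both and 6.35% neither. The 12397 other genes had 20.9%, 7.27%, 1.61% and 70.2%. Among H3K27me3-only genes, those with Suz12 in both libraries had a median ratio of 0.711 and those without 0.597. The printed stretches show that single genes can leave their class median, since Tbx6 and Hand1 had ratios of 0.330 and 0.339, below the lower quartiles of their classes, while En1 had 0.764 and Olfr1 0.0532.

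**Figure D5:**
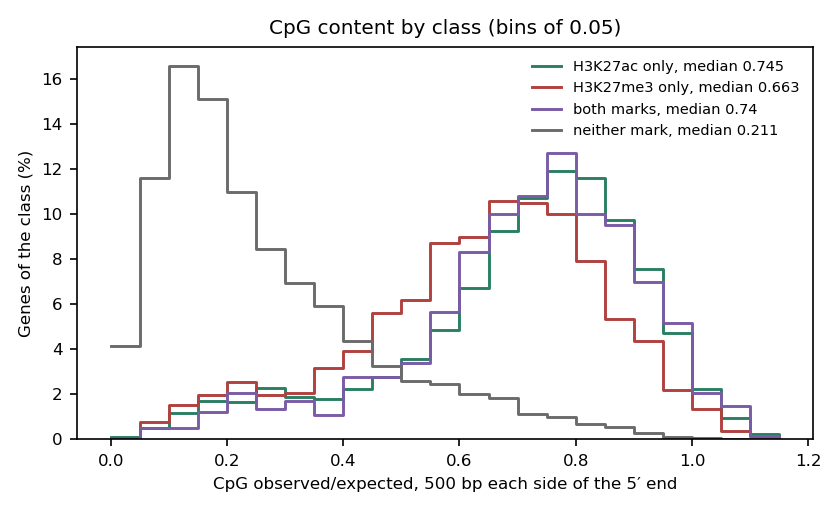
Distribution of the observed over expected CpG ratio (horizontal axis) of the 1001 bases around the 5′ end, as the share of each class's genes per bin (vertical axis, %). The neither class peaks at low ratios (median 0.211) and the 3 marked classes overlap at high ratios (medians 0.745, 0.663 and 0.740).

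Genes of one class tended to lie next to each other. The next gene along the chromosome had the same class for 60.3% of H3K27ac-only, 20.5% of H3K27me3-only, 13.3% of both-mark and 63.3% of neither-mark genes, against 43.9%, 10.4%, 3.73% and 42.0% of all genes. Neighbours can share one window, as 25%, 8.38%, 16.7% and 4.59% of the classes did. The longest runs of H3K27me3-only genes were 11 at Hoxd over 103 kb and 11 at Hoxa over 95.5 kb, and the longest run with neither mark held 226 genes over 5090 kb of chromosome 2, most of them olfactory receptors. The X chromosome had fewer marked genes, with 32.9% H3K27ac only, 3.88% H3K27me3 only, 0.539% both and 62.7% neither among 927.

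H3K27ac away from promoters was counted as regions more than 2.5 kb from any TSS and within 50 kb of the 5′ end, and was present in both libraries at 39.9% of all genes. The shares were 59.4% and 60.7% in H3K27ac-only, 61.0% and 62.7% in both-mark, 39.7% and 41.3% in H3K27me3-only and 30.1% and 31.2% in neither-mark genes, against 45.1% and 46.4% of all genes in replicates 1 and 2. The both-mark and H3K27ac-only classes were thus close to each other in both libraries, and the neither class was the lowest. By list, distal H3K27ac in both libraries was found at 19 of 20 streak genes, 11 of 14 genes of the epithelial to mesenchymal transition and 8 of 16 cardiac transcription factors, but at 4 of 23 neural regulators, 3 of 18 endoderm genes and 9 of 39 Hox genes. High shares were not particular to developmental lists. Distal H3K27ac was also found at 12 of 14 housekeeping genes, 8 of 9 Notch receptors and ligands and 61 of 82 ribosomal protein genes. Gene density differs between these loci and its part in the counts was not tested.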

How the data were processed

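Day 4 mesoderm cells were profiled by ChIP-seq for H3K27ac, H3K27me3, Suz12 and Brg1-FLAG. Reads had been aligned with Bowtie to mm9 (per the labels' processing notes, Bowtie version not given in the sources used here), and the authors called enriched regions in each replicate with an input-corrected Poisson model, at a threshold of 1e-12 for the marks and Suz12 and 1e-06 for FLAG. The deposited lists hold only region starts and ends, with no count, score or p-value, in steps of 25 bp, so a weak and a strong region count alike.

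Here 22225 protein-coding genes were classed from 70008 TSSs of GENCODE vM1 on NCBIM37. Mitochondrial genes (13) were left out and 142 identifiers were joined to another of the same symbol. A region counted with at least 1 bp within 2.5 kb, and the libraries required for a mark had to list a region in the window of the same TSS. Intervals, sequences and tests used Python 3.11.15, NumPy 2.4.6, pandas 2.3.3, SciPy 1.17.1, pysam 0.24.0 and Matplotlib 3.10.9, and the interval counts were tested on simulated data. The study's methods call the ChIP-seq replicates biological, in triplicate for H3K27me3 and in duplicate for the others. Genes named are up to 4 of each list and class with the most covered bases within 10 kb, the leading 8 of each class, the streak, cardiac, BAF and Polycomb lists, and the genes whose tracks the study shows. Some genes that this rule names are not reported here, and the neural promoter shown is the second in its ranking, chosen after its list's values were seen. Members and lists were chosen with earlier results of these data known. List counts cover the symbols matched to the annotation, and the rest are not analysed here. The alternatives are in the closing section.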

Additional observations from a re-analysis of the deposited data

How the results depend on the processing

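The class with both marks was the most sensitive to the processing. Its 830 genes became 528 within 1 kb of a TSS, 320 when 500 bp of a window had to be covered, 1248 with H3K27me3 in any 1 library and 287 with regions of at least 500 bp only, and 651 to 979 when 1 library was left out. The share of H3K27ac genes with H3K27me3 (7.83%) became 5.15% at 1 kb, 9.96% at 5 kb, 3.74% with 500 bp covered, 6.00% at the 5′ end alone, 9.49% with H3K27ac in 1 of 2, 5.73% and 11.8% with H3K27me3 in 3 and in 1 of 3, 3.52% with wide regions, and 6.14% to 8.85% with 1 library left out. The share of H3K27me3 genes with H3K27ac (26.5%) became 19.3%, 33.1%, 13.4%, 20.6%, 34.6%, 23.0%, 31.5% and 12.6% in the same order, and 23.8% to 31.2%. The cause was not tested.

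The counts of the other 3 classes stayed within 1.5 times under the 16 alternatives, and between 62 and 65 of the 65 gene lists kept their leading class. The streak list was led by both marks when 1 H3K27me3 library was enough. Over all genes, 72.2% of H3K27ac-only, 59.8% of H3K27me3-only, 14.1% of both-mark and 86.5% of neither-mark genes kept their class in every alternative.

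The difference in TSS share was -5.14 percentage points at 1 kb, and lay between -23.3 and -16.6 with 1 library left out, as the width difference lay between 12.5 and 100 bp. The width difference reversed to -117 bp with wide regions only, with p = 0.6 (exact permutation). As a replicate block, libraries 1 and 2 paired by number gave -17.4 percentage points for the TSS share and 62.5 bp for the median width, with no test, and the labels do not say that a number marks a shared culture. Suz12 within 1 kb was at 0.118%, 56.1%, 35.8% and 0.184% of the classes in the order H3K27ac only, H3K27me3 only, both and neither. Within 5 kb both-mark and neither genes had 33.6% and 0.0453%, and at the 5′ end 25.6% and 0.0458%. The CpG ratio moved to 0.752, 0.738 and 0.752 in H3K27ac-only genes (1 kb, 5 kb, 5′ end), to 0.677 and 0.764 in H3K27me3-only and both-mark genes (5′ end), and to 0.215 in neither genes (1 kb). The depth is unknown, so a gene without a region is one where none was listed.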

Other observations

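Genes were also grouped by the letters that begin their symbols, and the stems below were chosen after their values were seen, so no test is given. H3K27ac alone was found at 20 of 20 Cep genes (centrosomal proteins), 29 of 30 Med genes (Mediator subunits) and 25 of 27 Polr genes (RNA polymerase subunits). H3K27me3 alone was found at 8 of 14 Htr genes (serotonin receptors), 6 of 8 Kcna genes (voltage-gated potassium channels), 9 of 14 Kcnk genes (leak potassium channels) and 5 of 8 Cacng genes (calcium channel subunits). Both marks were found at 5 of 17 Klf genes and 4 of 24 Dusp genes (dual-specificity phosphatases), against 3.73% of all genes. Neither mark was found at any of 27 Klk genes (kallikreins), 26 Prl genes (prolactin family), 30 Rhox genes (reproductive homeobox genes of the X chromosome) or 20 Ces genes (carboxylesterases). Rhox genes thus differed from the Hox genes, all 39 of which had H3K27me3.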
